A study of Mus musculus with 11 samples.

Results

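The ephrin ligands are the 8 genes Efna1 to Efna5 and Efnb1 to Efnb3, taken by name from the 35056 genes to which the sequenced transcripts were assigned. They were examined in bulk RNA sequencing of KP1, a cell line from a mouse small cell lung cancer (SCLC) that lacks functional Rb and p53. Control cells were untreated (2 libraries, replicates 2 and 3). Irradiated cells were collected 24 h after a dose of 5 Gy (3 libraries, replicates 1, 2 and 3). All libraries came from total RNA of the same line grown in RPMI-1640 with bovine serum and antibiotics. They thus describe 1 tumor line in culture without host cells. The labels do not say whether the replicates were separate cultures, so p-values measure the spread between these libraries, which may be technical. The comparison addresses how tumor cells respond to radiation in culture.

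Ephrins are cell-surface ligands that bind Eph receptor tyrosine kinases on neighbouring cells. Ephrin-A proteins are held in the membrane by a glycosylphosphatidylinositol (GPI) anchor and bind mainly EphA receptors, whereas ephrin-B proteins span the membrane and bind mainly EphB receptors. Contact signals into the receptor-bearing cell (forward signalling) and also into the ligand-bearing cell (reverse signalling). The system is best known for repelling growing axons and sorting cells into separate territories during development.

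The 8 genes were listed with this contrast in view, by their read counts in the 5 libraries. Their differences between control and irradiated cells are therefore given as a description and carry no test. The 2 control libraries held 31036317 and 26432466 estimated reads, and the 3 irradiated libraries held 24469945, 21185956 and 27243557. Levels are given in TPM, Salmon's transcript abundance scaled for length to the same total in each library, which allows different genes to be set side by side. Differences are log2 fold changes of irradiated over control cells from edgeR, on reads scaled by library size with the TMM method. Control replicate 2 stood apart from the other libraries: on the first principal component, which held 61.6% of the variance of log2 CPM (TMM-scaled reads over the library total), it lay at −86.9, control replicate 3 at −31.4 and irradiated replicates 1, 2 and 3 at 49.9, 48.0 and 20.4.

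Efna1, Efna3 and Efna4 lie side by side on chromosome 3, and Efna5, the most abundant of the family here, lies on chromosome 17. The sequences upstream of these genes are shown because the clustered genes all had higher read counts in irradiated cells while Efna5 had lower ones. Each is a stretch of 200 bases ending 51 bases before a RefSeq transcription start, from RefSeq on GRCm38.p6, written 5′ to 3′ on the minus strand, on which all 4 genes lie. They span chr3:89279696-89279895 for Efna1, chr3:89322990-89323189 for Efna3, chr3:89338079-89338278 for Efna4 and chr17:62881368-62881567 for Efna5. No annotated exon lay in any of them. Capitals mark matches to ACGTG or GCGTG, the core letters of a hypoxia response element, on either strand, so that a match on the opposite strand reads CACGT or CACGC.
Efna1: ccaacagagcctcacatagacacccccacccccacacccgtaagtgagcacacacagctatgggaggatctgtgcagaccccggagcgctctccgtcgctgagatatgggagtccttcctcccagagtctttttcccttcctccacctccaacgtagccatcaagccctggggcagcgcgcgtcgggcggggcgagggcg
Efna3: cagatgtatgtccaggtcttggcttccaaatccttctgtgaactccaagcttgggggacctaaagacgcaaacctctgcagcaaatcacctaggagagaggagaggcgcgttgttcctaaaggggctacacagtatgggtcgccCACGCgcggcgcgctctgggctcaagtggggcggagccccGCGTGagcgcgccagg
Efna4: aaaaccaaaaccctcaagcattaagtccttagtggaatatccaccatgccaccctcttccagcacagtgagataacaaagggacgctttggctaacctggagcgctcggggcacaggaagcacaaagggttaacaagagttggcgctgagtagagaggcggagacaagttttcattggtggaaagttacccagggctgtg
Efna5: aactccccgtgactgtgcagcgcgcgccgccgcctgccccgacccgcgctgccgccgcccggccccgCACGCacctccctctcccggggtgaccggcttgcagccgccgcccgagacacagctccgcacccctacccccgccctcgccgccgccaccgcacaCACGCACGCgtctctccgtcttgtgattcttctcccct

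The Efna1 and Efna4 windows held no match. The Efna3 window held 2 matches and the Efna5 window 3, all of them to GCGTG. Of 32851 windows of the same length and position before RefSeq starts, 31.6% held at least 1 match, so the presence of these letters did not separate the clustered genes from Efna5. The GC box letters GGGCGG, found on either strand in 24.6% of all windows, occurred once in the Efna1 window, once in that of Efna3 and 3 times in that of Efna5. The letters CANNTG of an E-box, which can overlap ACGTG, were in 59% of windows and among these 4 genes occurred only before Efna3, with 2 matches. A match is a description of letters and not of a bound site. The windows shown are those nearest to the start of the gene's most-read transcript. RefSeq holds a second start for Efna1, whose window held no match to any of these letters, and for Efna3, whose window held 3 matches to GCGTG, 2 to GGGCGG and 0 to CANNTG. The RefSeq table held a window for 7 of the 8 ephrin genes, and Efnb3 was the exception.

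Ephrin mRNA in KP1 cells was dominated by 1 ligand, Efna5, in untreated and irradiated libraries alike, but by a smaller margin after irradiation. All 8 genes passed the filter on low counts, and Efna1 passed it only through the irradiated libraries. On CPM, 5 genes (Efna1, Efna2, Efna3, Efna4 and Efnb1) were higher in every irradiated library than in both controls, an order found for 30.1% of the 14106 genes tested. Efna5 and Efnb2 were lower in every irradiated library, an order found for 29.3% of genes tested, and the groups overlapped for Efnb3. On TPM, Efna1, Efna4 and Efnb1 were higher without overlap (15.4% of all genes tested), Efna5 and Efnb2 were lower without overlap (42.7%), and Efna2, Efna3 and Efnb3 overlapped. The scales also differed over all genes: the median gene had a log2 ratio of −0.31 on TPM but a log2 fold change of 0.02 on TMM-scaled reads. The median log2 fold change of the 8 ligands was 0.61, with 5 above 0.

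**Figure D1:**
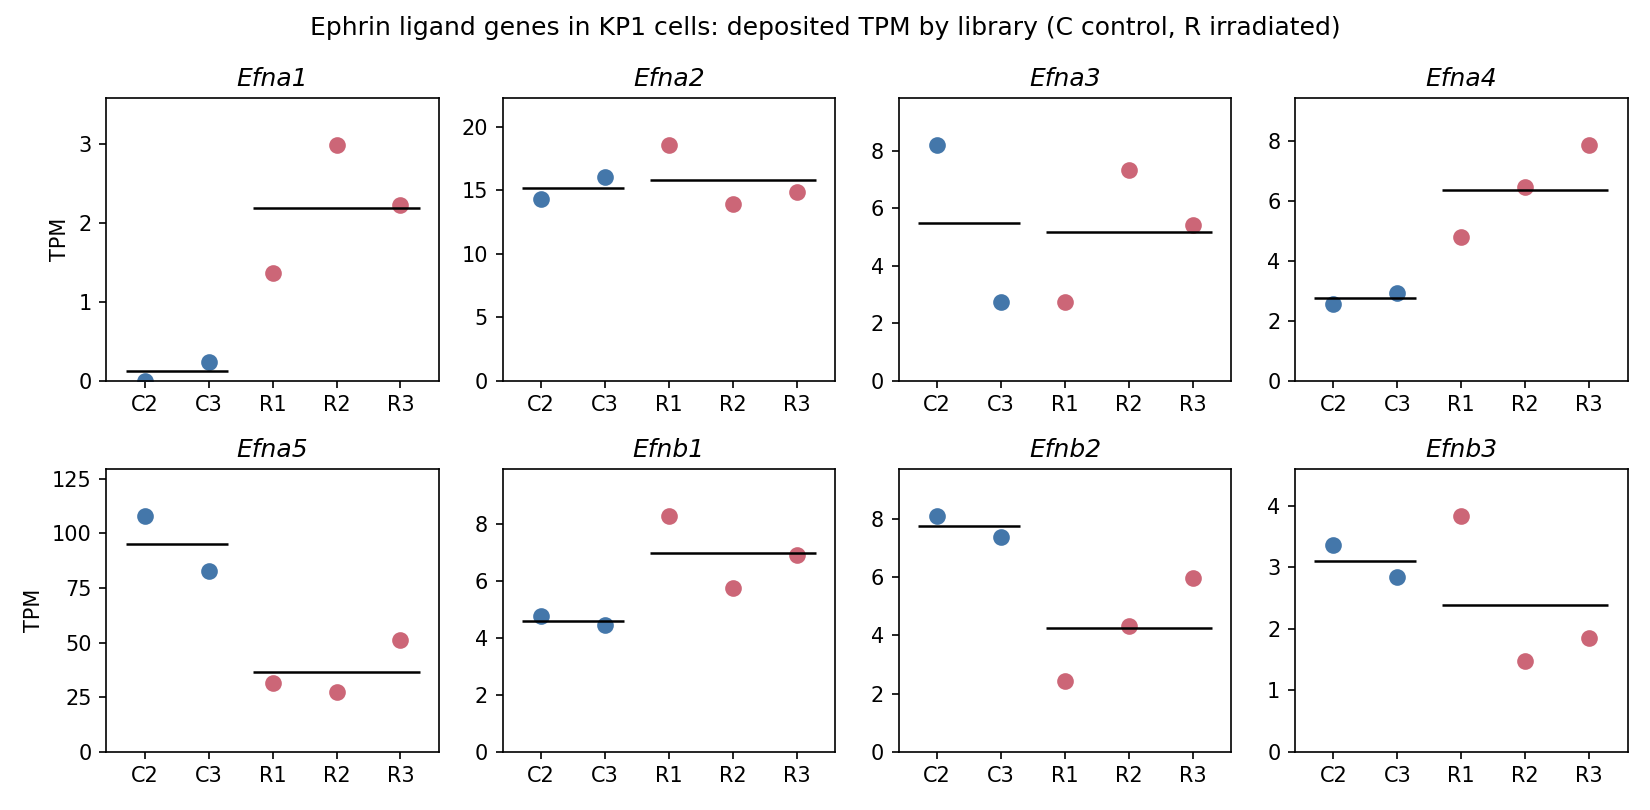
Level of each ephrin ligand in TPM, 1 panel per gene with its own axis from 0, with 1 point per library (blue, control, C2 and C3; red, irradiated, R1 to R3) and a line at each group's mean. Efna5 reaches 107.8 TPM, and Efna1 is at 0 and 0.235 TPM in the controls and between 1.37 and 2.98 in irradiated cells.

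Efna5, a GPI-anchored ligand known for guiding retinal axons (chr17:62604184-62881317, minus strand), had 5763 and 3640 reads in the controls and 1783, 1482 and 2666 in the irradiated libraries. Its level was 107.8 and 83.0 TPM in control cells and 31.6, 27.5 and 51.3 TPM in irradiated cells. Every irradiated library lay below both controls, and the irradiated library nearest to them was replicate 3. The mean level was 95.4 ± 17.6 TPM (SD, n = 2) in control and 36.8 ± 12.7 TPM (SD, n = 3) in irradiated cells, and the log2 fold change was −1.11 (SE 0.22). The library with the highest Efna5 level was control replicate 2, and without it the other control remained above all irradiated libraries.

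Efna2, another GPI-anchored ligand with a role in the mapping of visual axons (chr10:80179482-80190010, plus strand), was second in level. It had 415 and 421 reads in the controls and 567, 391 and 476 in the irradiated libraries. In TPM it stood at 14.3 and 16.0 in control cells and at 18.6, 13.9 and 14.9 in irradiated cells, so that the groups overlapped. The means were 15.2 ± 1.23 TPM (SD, n = 2) and 15.8 ± 2.44 TPM (SD, n = 3), which differed by less than the spread between libraries. Its log2 fold change was 0.34 (SE 0.20).

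Efna1, known as a ligand of EphA2 and as an early tumor necrosis factor response gene in endothelial cells (chr3:89271733-89281142, minus strand), was at or near the detection floor in untreated cells. It had 0 and 4 reads in control replicates 2 and 3 and 27, 54 and 46 reads in the irradiated libraries. With a detection floor of 3 reads, control replicate 2 was under the floor and control replicate 3 just above it. Pooled over libraries, 4 reads in control and 127 in irradiated cells gave a CPM on plain library totals of 0.0696 and 1.74. The level in irradiated cells, 2.19 ± 0.809 TPM (SD, n = 3), stayed below that of every other ligand in mean.

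Efna4 (chr3:89333390-89338028, minus strand), a GPI-anchored ligand, had 53 and 55 reads in the controls and 104, 129 and 179 in the irradiated libraries. Its level was 2.57 and 2.94 TPM in control cells and 4.79, 6.48 and 7.88 TPM in irradiated cells. The control libraries lay close together, and all irradiated libraries lay above them. The mean went from 2.75 ± 0.268 (SD, n = 2) to 6.38 ± 1.55 TPM (SD, n = 3), and the log2 fold change was 1.49 (SE 0.36).

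Efna3 (chr3:89313899-89322965, minus strand), also GPI-anchored, gave different pictures in reads and in TPM. It had 62 and 33 reads in the controls and 94, 158 and 139 in the irradiated libraries, with a log2 fold change of 1.64 (SE 0.44). Its TPM was 8.20 and 2.75 in control cells and 2.73, 7.35 and 5.43 in irradiated cells, with overlapping groups. Salmon divided nearly all reads between a long transcript of 2363 bases and a short transcript of 742 bases. The bases of the short transcript are all contained in the long one. A processed transcript of 454 bases held the rest, 2.29 reads (0.946 TPM) in irradiated replicate 2 and 0 in the other libraries. The short transcript of 742 bases took 94.2% and 41.2% of the gene's reads in the controls and 0%, 8.11% and 11.4% in the irradiated libraries. The long transcript had 3.59 and 19.4 reads in the controls against 94, 143 and 123 in the irradiated libraries. A read counts for more TPM on a short transcript, and with an offset for Salmon's effective lengths the log2 fold change of Efna3 was 0.28. The short transcript has no base of its own, and junctions between exons were not compared. How surely these reads belong to it was therefore not determined, and no statement on a change of isoform is made.

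Of the transmembrane ligands, Efnb1 (chrX:99136130-99148991, plus strand), mutated in human craniofrontonasal syndrome, had 222 and 188 reads in the controls and 407, 261 and 354 in the irradiated libraries. Its TPM was 4.75 and 4.45 in control cells and 8.25, 5.76 and 6.89 in irradiated cells, all above both controls. The log2 fold change was 0.88 (SE 0.24).

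Efnb2 (chr8:8617434-8661242, minus strand), a marker of arterial endothelium and a partner of EphB4, had 553 and 474 reads in the controls and 183, 298 and 465 in the irradiated libraries. Its TPM was 8.09 and 7.40 in control cells and 2.44, 4.33 and 5.97 in irradiated cells. The irradiated libraries lay below both controls but were spread widely, from the lowest in replicate 1 to the highest in replicate 3. The log2 fold change was −0.56 (SE 0.32), and it was −0.09 with the offset for transcript length described below.

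Efnb3 (chr11:69554092-69560205, minus strand), a midline guidance cue of the spinal cord, had 153 and 117 reads in the controls and 184, 65 and 93 in the irradiated libraries. Irradiated replicate 1 lay above both controls and the other irradiated libraries below them. In TPM the values were 3.36 and 2.84 in control cells and 3.83, 1.47 and 1.86 in irradiated cells, and the log2 fold change was −0.09 (SE 0.43).

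In control cells the order of mean levels was Efna5, Efna2, Efnb2, Efna3, Efnb1, Efnb3, Efna4 and Efna1. Within it, Efnb2, Efna3 and Efnb1 overlapped with their neighbours between libraries, as did Efnb3 and Efna4, whereas the other neighbours did not overlap. Against all genes tested, Efna5 stood at the 85.7th percentile of control TPM, Efna2 at the 40.9th and Efna1 at percentile 0.822. In irradiated cells the order was Efna5, Efna2, Efnb1, Efna4, Efna3, Efnb2, Efnb3 and Efna1, and from Efnb1 downward every neighbouring pair overlapped. Efna4 thus stood 7th of 8 in control cells and 4th in irradiated cells, but among ligands whose irradiated libraries overlapped.

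The summed level of the 8 ligands was 149.1 and 119.6 TPM in control cells and 73.5, 69.8 and 96.5 TPM in irradiated cells. The means were 134 ± 20.8 (SD, n = 2) and 79.9 ± 14.4 TPM (SD, n = 3), and no irradiated library reached a control. Efna5 made up 72.3% and 69.4% of this sum in the controls and 42.9%, 39.4% and 53.2% in the irradiated libraries. Without Efna5, the other ligands summed to 41.3 and 36.7 TPM in the controls and to 42.0, 42.3 and 45.2 TPM in irradiated cells. Their means were 39.0 ± 3.27 (SD, n = 2) and 43.1 ± 1.75 TPM (SD, n = 3), and the nearest libraries of the groups lay at 41.3 and 42.0 TPM. The ephrin-B genes together gave 15.4 ± 1.08 TPM (SD, n = 2) in control and 13.6 ± 1.77 TPM (SD, n = 3) in irradiated cells. Efna1, Efna3 and Efna4 together gave 10.8 and 5.92 TPM in the controls and 8.89, 16.8 and 15.5 TPM in irradiated cells, with overlapping groups. Their share of ephrin TPM, a sum that includes Efna5, was 7.22% and 4.95% in the controls and 12.1%, 24.1% and 16.1% in irradiated cells.

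**Figure D2:**
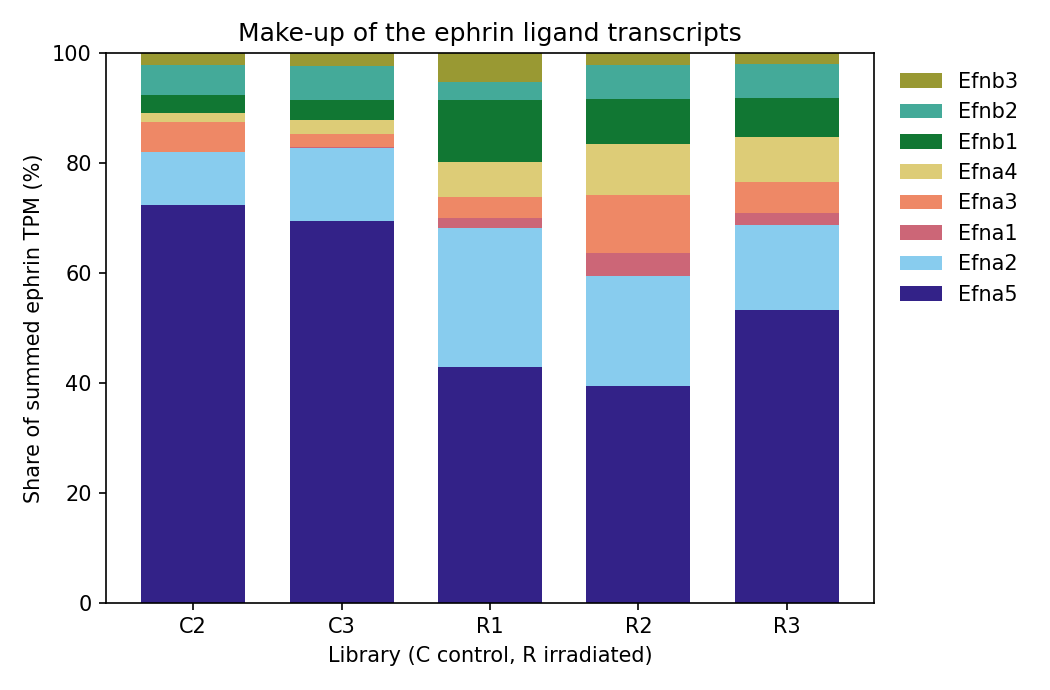
Share of summed ephrin TPM (percent) held by each ligand in each of the 5 libraries, as stacked bars. Efna5 holds 72.3% and 69.4% of the sum in control replicates 2 and 3 and 42.9%, 39.4% and 53.2% in irradiated replicates 1, 2 and 3.

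For Efna5 the transcript of 4032 bases carried 97.4% to 99.4% of the reads in each library. Efna1, Efna2, Efna4, Efnb1 and Efnb3 each had reads on a single transcript. Efnb2 had 25.4 reads on a retained-intron transcript in control replicate 2 and none on it in the other libraries. Genes annotated on top of an ephrin gene, antisense genes at Efna3 and Efna4 and 3 genes at Efnb2 that the annotation lists as awaiting experimental evidence, had 0 reads in all libraries.

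The libraries also differed in which transcripts they sampled by length. The mean transcript length over all reads was 5463 and 4729 bases in the controls and 3715, 3625 and 3998 bases in the irradiated libraries. Among the 14106 genes tested, the median log2 fold change was 0.41 for decile 3 by transcript length, which holds Efna1, Efna3 and Efna4, and −0.25 for decile 8, which holds Efna5. The decile of Efna2 had a median of 0.12, that of Efnb1 and Efnb3 −0.10, and that of Efnb2 −0.40. With an offset that removes each library's smooth trend of reads with transcript length, the log2 fold changes were 4.12 for Efna1, 1.19 for Efna3, 1.15 for Efna4, 1.04 for Efnb1, 0.20 for Efna2 and −0.88 for Efna5. Each kept its sign, while Efnb3 moved from −0.09 to 0.05. Whether the length trend was a property of the RNA, of the libraries or of the cells was not tested.

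**Figure D3:**
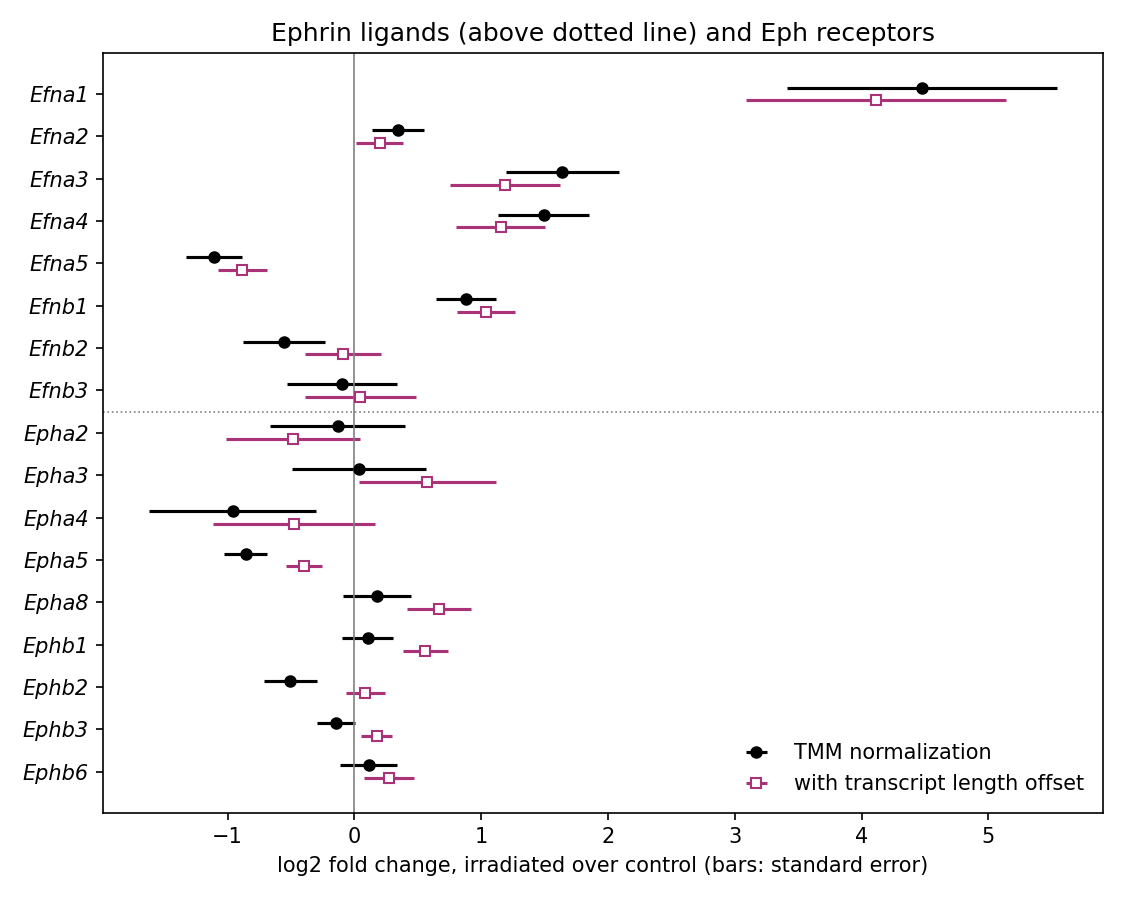
Log2 fold change of irradiated over control cells for the 8 ephrin ligands and the 9 Eph receptors tested, with bars of 1 SE, from TMM-scaled reads and with the offset for transcript length. Efna1, with 0 and 4 reads in the controls, is at 4.48 and 4.12, Efna5 at −1.11 and −0.88, and Ephb2 at −0.51 and 0.09.

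Efna1, Efna3 and Efna4 span 66.3 kb of chromosome 3 (chr3:89271733-89338028). Within 100 kb on either side, 20 other genes were tested. Of these, 5 rose after irradiation (12.7% of all genes tested rose) and 0 fell (13.0% of all genes tested fell), at adjusted p under 0.05 in edgeR's quasi-likelihood test. In total 25.6% of genes changed. At an unadjusted p under 0.05, 8 of the 20 were higher and 0 lower, against 20.9% and 20.1% of all genes tested. DESeq2 called 6 higher and 0 lower, against 17.1% and 16.2%. Without control replicate 2, 0 of the 20 passed in either direction, and 0.65% of all genes were higher and 1.2% lower. Without irradiated replicate 1, 1 was higher (5.95% of all genes, with 6.5% lower), and without irradiated replicate 2, 1 was higher (4.91%, with 5.98% lower). The genes that rose were Dpm3, a subunit of the dolichol phosphate mannose synthase (log2 fold change 1.99, adjusted p = 0.0185), Cks1b, a cofactor of cyclin-dependent kinases and of p27 degradation (1.29, adjusted p = 0.0284), Krtcap2, an oligosaccharyltransferase subunit (0.96, adjusted p = 0.0137), Mtx1, a mitochondrial outer membrane protein (0.77, adjusted p = 0.0445), and Zbtb7b, the transcription factor ThPOK (0.57, adjusted p = 0.0358). On CPM, 11 of the 20 genes were higher in every irradiated library (30.1% of all genes tested) and 2, Thbs3 and Muc1, were lower (29.3%). Their median log2 fold change was 0.29, and with the length offset it was 0.13. With that offset 2 of them, Dpm3 and Zbtb7b, rose and 0 fell (4 higher and 3 lower at an unadjusted p under 0.05, against 17.1% and 13.7% of all genes), where 4.25% of all genes tested rose, 3.64% fell and 7.9% changed. The direct neighbours of the trio, Adam15 on 1 side (0.27, adjusted p = 0.232) and Slc50a1 on the other (0.66, adjusted p = 0.19), did not pass the test.

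**Figure D4:**
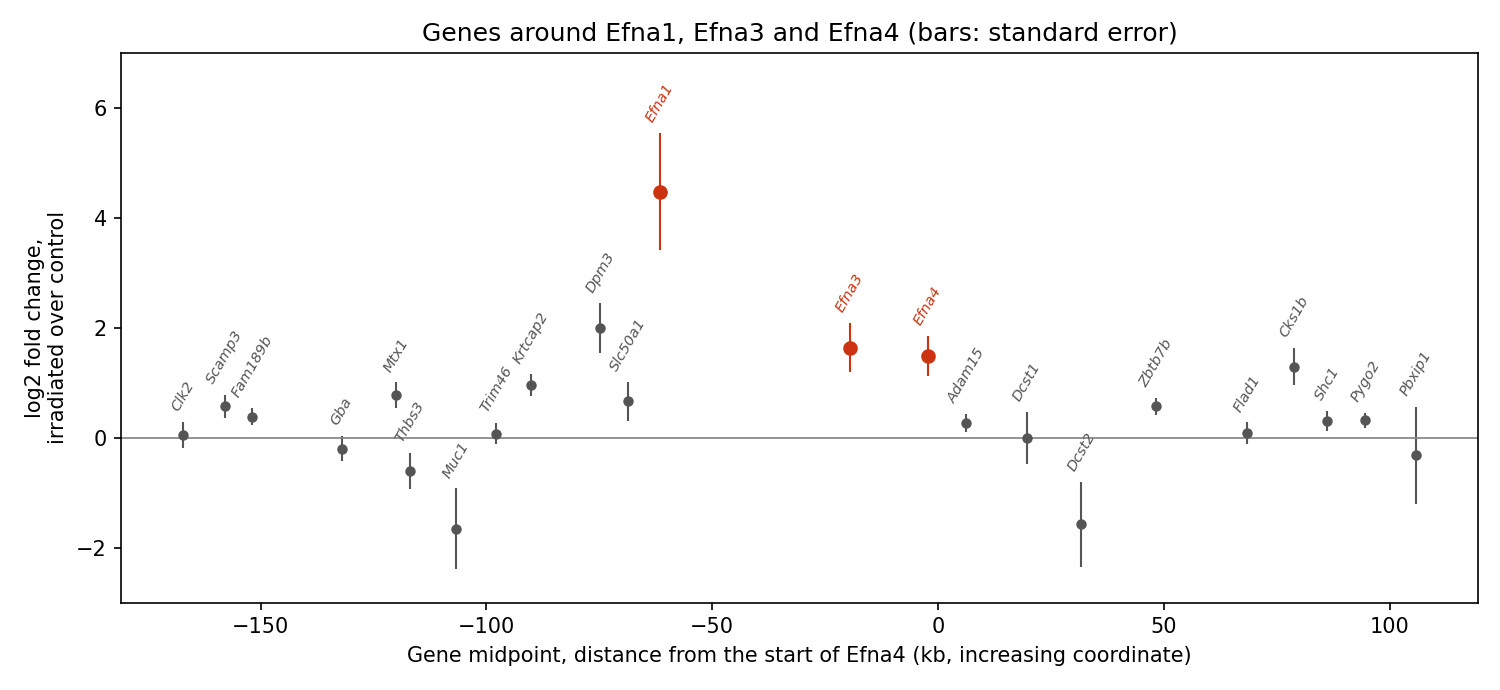
Log2 fold change of irradiated over control cells (bars, 1 SE) for the genes tested around Efna1, Efna3 and Efna4 (red), against the distance in kb of each gene's midpoint from the start of Efna4. Of the 20 other genes, 5 rose (12.7% of all genes tested) and 0 fell (13.0%) at adjusted p under 0.05 in edgeR. With the length offset 2 rose (4.25% of all genes tested) and 0 fell (3.64%). The 3 ephrin genes, listed with this contrast in view, lie at 4.48, 1.64 and 1.49.

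By the root mean square difference of centred log2 CPM over the 5 libraries, the genes most like Efna5 were Flrt1 (0.0285), Zfp407 (0.0392), 5830417I10Rik (0.0421), Prr14l (0.0481) and Kcnj6 (0.0527). Of all genes tested, 4.17% lay within 0.2 of Efna5. Those most like Efna2 were Tmem267 (0.0189), Lztr1 (0.0339), Olfml2b (0.0353), Ate1 (0.0358) and Cyb5r3 (0.0366), with 14.1% of genes within 0.2. Among the ligands themselves the nearest pairs were Efna2 with Efnb1 (0.277), Efna3 with Efna4 (0.368) and Efna5 with Efnb2 (0.416), and the farthest was Efna1 with Efna5 (2.48). Such distances rest on 5 libraries and depend on the size of a difference as well as on its direction. Efna1 and Efna2, both higher in every irradiated library on CPM, lay 1.78 apart. Efna2 and Efnb2, of opposite direction, lay 0.715 apart.

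Of the 14 Eph receptors, 9 passed the filter, and they were dominated by Ephb2 as the ligands were by Efna5. Epha5 fell, and the other 8 did not pass the test. Ephb2, a receptor for ephrin-B ligands that also binds the Efna5 protein, had 497 and 342 TPM in the controls and 257, 215 and 310 TPM in irradiated cells. It held 79.9% and 75.1% of summed receptor TPM in the controls and 76.3%, 75.4% and 76.6% in irradiated cells, and its control level stood at the 98.0th percentile of genes tested. All irradiated libraries lay below both controls, but its log2 fold change of −0.51 (SE 0.21) gave an adjusted p of 0.102 and with the length offset was 0.09 (adjusted p = 0.733).

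Epha5, a neuronal receptor of ephrin-A ligands, had 1163 and 1069 reads in the controls and 500, 469 and 701 in the irradiated libraries. Its TPM was 17.6 and 16.5 in control cells and 6.57, 6.35 and 9.83 in irradiated cells, with no overlap. The log2 fold change was −0.86 (SE 0.17, adjusted p = 0.0128 in edgeR). With the length offset it was −0.40 (adjusted p = 0.111). Without control replicate 2 it did not pass. Of all genes tested, 13.0% fell, and 1 of 9 receptors is near that share.

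Ephb3, another receptor of ephrin-B ligands, had 64.9 and 66.5 TPM in the controls and 43.2, 40.5 and 53.6 TPM in irradiated cells, but the groups overlapped on CPM and its log2 fold change was −0.15 (adjusted p = 0.502). Epha8 ranged from 9.05 to 15 TPM in the controls and from 8.72 to 14.1 in irradiated cells, with overlapping groups. Ephb6, a receptor without kinase activity, ranged from 7.89 to 14.3 TPM and Ephb1 from 4.81 to 6.93 TPM over all libraries. Their log2 fold changes were 0.18 for Epha8, 0.11 for Ephb6 and 0.10 for Ephb1. The low receptors Epha2 (−0.13), Epha3 (0.04) and Epha4 (−0.96, adjusted p = 0.306) did not pass the test either. Epha2, a receptor of Efna1, was lower in every irradiated library on TPM but overlapped on CPM, and with the effective-length offset its log2 fold change was −1.54 (adjusted p = 0.12). Epha1, Epha6, Epha7, Epha10 and Ephb4 had at most 10 reads in any library and were not tested, so the main EphB4 partner of Efnb2 was at or near the floor. The median log2 fold change of the 9 receptors was −0.13, with 4 above 0, and with the length offset it was 0.18, with 6 above 0. The ratio of summed ephrin to summed receptor TPM was 0.240 and 0.263 in the controls and 0.218, 0.245 and 0.239 in irradiated cells, with overlapping groups.

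**Figure D5:**
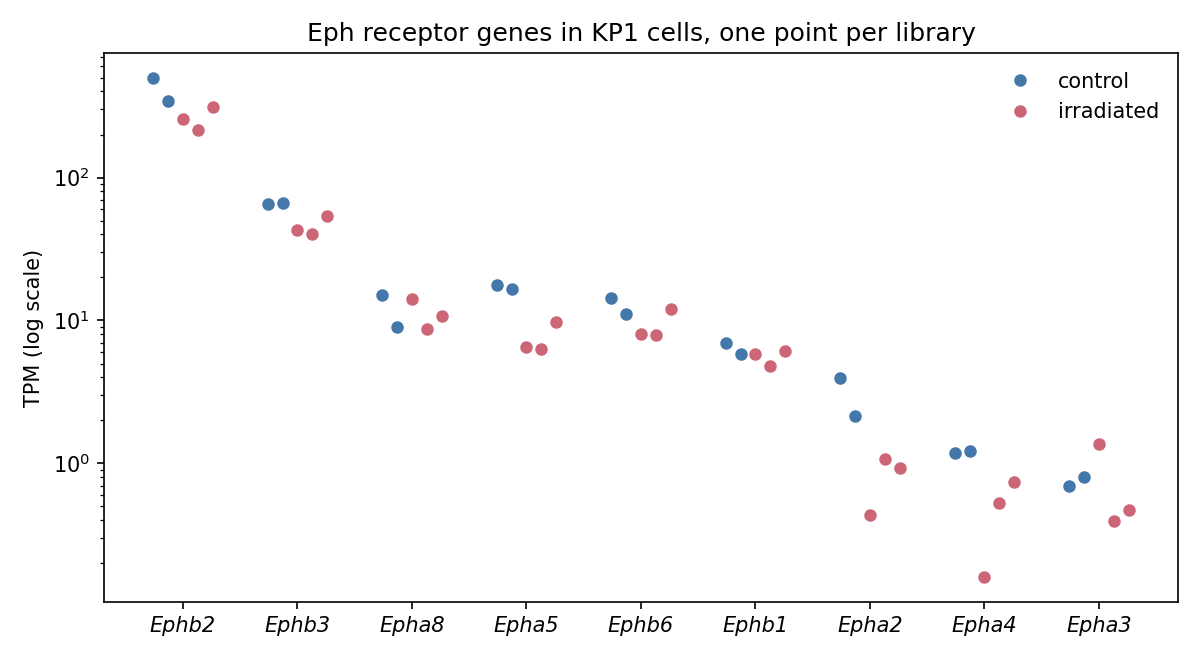
Level of the 9 Eph receptors tested, in TPM on a log axis, with 1 point per library (control, n = 2; irradiated, n = 3). Ephb2 lies above all other receptors, at 342 and 497 TPM in controls and 215 to 310 TPM in irradiated cells, and the other 5 receptors, with too few reads, are not drawn.

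The genes that carry the signal onward were listed by role. Of 24 genes of Eph forward signalling, 23 were tested, 1 rose and 8 fell, where 12.7% of all genes tested rose and 13.0% fell. The median log2 fold change of the list was −0.29 against 0.02 over all genes tested. Those that fell were the guanine nucleotide exchange factors Kalrn (−1.36, adjusted p = 0.00825), Tiam1 (−0.75, adjusted p = 0.0173) and Itsn1 (−0.59, adjusted p = 0.0252), the serine/threonine kinases Rock2 (−0.86, adjusted p = 0.00919) and Rock1 (−0.65, adjusted p = 0.0185), the ubiquitin ligase Cbl (−1.19, adjusted p = 0.0106), the kinase Abl2 (−0.75, adjusted p = 0.0171) and the Rap GTPase-activating protein Sipa1l1 (−0.69, adjusted p = 0.0293). The adaptor Nck1 rose (0.80, adjusted p = 0.0189). Kalrn had 32.8 and 25.3 TPM in the controls and 12.8, 8.25 and 11 TPM in irradiated cells, without overlap. The most abundant members that did not pass were Rhoa, a small GTPase (0.22, adjusted p = 0.337), and the phosphatase Inppl1 (SHIP2).

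With the length offset, Kalrn was the only forward signalling gene that still fell (−0.73, adjusted p = 0.0301), and 0 rose (5 higher and 3 lower at an unadjusted p under 0.05, against 17.1% and 13.7% of all genes tested). With that offset 4.25% of all genes tested rose and 3.64% fell. Without control replicate 2, 1 gene of the list fell and 0 rose (1.2% of all genes lower, 0.65% higher). Without irradiated replicate 1, 3 fell and 1 rose (6.5% and 5.95%), and without irradiated replicate 2, 3 fell and 0 rose (5.98% and 4.91%). The list's genes are long, with a median transcript length of 4032 bases against 2502 over all genes tested, and its median log2 fold change became 0.09. The adjusted p of Rock2 was then 0.611 and that of Cbl 0.0979.

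Of 11 genes of ephrin-B reverse signalling, all were tested and had a median of 0.09. In this list 1 rose and 1 fell, near the shares of 12.7% and 13.0% over all genes tested. Sdcbp, the PDZ adaptor syntenin, rose (1.00, adjusted p = 0.026), with 80.5 and 104 TPM in the controls and 112, 129 and 132 TPM in irradiated cells. Ptpn13, a phosphatase with PDZ domains, fell (−0.65, adjusted p = 0.0453). With the length offset 0 genes of this list passed in either direction, against 4.25% of all genes tested higher and 3.64% lower, and 3 were higher and 0 lower at an unadjusted p under 0.05 (17.1% and 13.7%). Ptpn13 then turned to 0.12 (adjusted p = 0.695), and Sdcbp was at 0.83 (adjusted p = 0.0546). Grip2, a PDZ scaffold, had 32882 reads in control replicate 2 against 4656 in the other control and 3336, 1827 and 9336 in irradiated libraries, so 1 library set its log2 fold change of −1.84 (adjusted p = 0.0983). Src, the kinase that ephrin-B engages, was at 0.00 (adjusted p = 0.993).

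Of 10 genes that cleave ephrins or Eph receptors, 9 were tested, 1 rose and 0 fell, with a median of 0.13, and the share that rose is near the 12.7% over all genes tested (13.0% fell). At an unadjusted p under 0.05, 2 were higher and 0 lower (20.9% and 20.1% of all genes tested), and DESeq2 called 1 higher and 0 lower (17.1% and 16.2%). Aph1a, a subunit of the gamma-secretase complex, rose (0.79, adjusted p = 0.0132; 0.67 with the length offset, adjusted p = 0.0309). Its TPM was 35.9 and 52.2 in the controls and 68.6, 71.8 and 91.1 in irradiated cells. Psenen, another subunit of that complex, had 88 and 419 reads in the controls and 728, 846 and 580 in irradiated cells (1.66, adjusted p = 0.0665). Of 5 genes that attach the GPI anchor, all were tested and 0 passed in either direction in edgeR, also at an unadjusted p under 0.05. Pigt was at −0.03 and Gpaa1 at −0.20. DESeq2 called 0 of these 5 as well. With the length offset 1 of the 5, Gpaa1, fell (−0.63, adjusted p = 0.0441) and 0 rose, where 3.64% of all genes tested fell and 4.25% rose. Without control replicate 2, 0 of the genes of reverse signalling or cleavage passed in either direction (0.65% of all genes higher, 1.2% lower). Of the reverse signalling genes, 0 passed without irradiated replicate 1 or 2 as well (5.95% and 4.91% of all genes higher, 6.5% and 5.98% lower).

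Markers of the tumor line were present in all libraries. All 9 neuroendocrine markers were tested and summed to 1762 and 1881 TPM in the controls and 2153, 2092 and 1890 TPM in irradiated cells. Of them, Uchl1 (1.14, adjusted p = 0.0229), Calca (1.18, adjusted p = 0.0474) and Syp (0.64, adjusted p = 0.0315) rose and Ncam1 (−1.20, adjusted p = 0.0227) fell, where 12.7% of all genes tested rose and 13.0% fell. With the length offset 0 of the 9 passed (4.25% of all genes tested higher, 3.64% lower), with adjusted p of 0.0738 for Uchl1, 0.251 for Calca, 0.176 for Syp and 0.092 for Ncam1. Without control replicate 2, too, 0 of the 9 passed (0.65% of all genes higher, 1.2% lower), as without irradiated replicate 1 (5.95% and 6.5%) or irradiated replicate 2 (4.91% and 5.98%). The most abundant of the others were Insm1, with 263 to 502 TPM, and Chga, with 278 to 475 TPM over all libraries.

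Markers of other cell types were measured as well. The 7 fibroblast markers summed to 67.5 and 57.2 TPM in the controls and 37.0, 51.9 and 47.1 TPM in irradiated cells, mostly Pdgfra, at 36.6 to 56.7 TPM over all libraries. Col1a1 had 33 reads (13.5 TPM) in control replicate 2 and 2 to 10 reads in the other libraries, and Col3a1 had 0 reads in all libraries. The 6 endothelial markers summed to 11.7 and 14.4 TPM against 7.90, 8.0 and 11 TPM, mostly Tek. Pecam1 had 43 and 26 reads in the controls and 10, 16 and 11 in irradiated cells, Vwf had 26 and 8 against 2, 5 and 9, and Cdh5 had at most 2 reads. The 7 leukocyte markers summed to 4.55 and 7.03 TPM against 1.62, 1.21 and 1.51 TPM, mostly Cd68. On CPM the groups overlapped for Cd68 (log2 fold change −0.86, adjusted p = 0.372 in edgeR). Of the fibroblast, endothelial and leukocyte markers, 3, 3 and 1 were tested, and 0 passed in either direction (12.7% of all genes tested rose and 13.0% fell). Ptprc, the pan-leukocyte antigen CD45, had 24 and 9 reads in the controls and 1, 8 and 5 in irradiated cells, and Adgre1, Csf1r and Lyz2 had at most 2 reads in any library. The 6 lung epithelial markers summed to 7.84 and 12.3 TPM against 12.7, 16.2 and 17.6 TPM. Of these 3 were tested, with a median log2 fold change of −0.12 and 1 above 0. Foxj1, a regulator of ciliated cells, had 176 and 154 reads in the controls and 75, 129 and 209 in irradiated cells (−0.12, adjusted p = 0.851), and Ager had 3 and 34 against 7, 17 and 2 (−0.89, adjusted p = 0.594). Sftpc, the surfactant protein of alveolar cells, rose from 23 and 39 reads to 83, 88 and 108 (1.72, adjusted p = 0.0276) but did not pass with any 1 of control replicate 2 and irradiated replicates 1, 2 and 3 left out, or with the length offset (1.18, adjusted p = 0.102), while Scgb1a1 and Krt5 had 0 reads. The part of these marker levels in the ephrin differences was not tested. In bulk RNA, fewer cells of a type and less RNA per cell cannot be told apart.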

How the data were processed

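RNA-seq libraries of KP1 cells were grouped by the treatment in the labels (2 control, 3 irradiated). The authors quantified reads with Salmon 0.8.2 against mm10 (the submitters' processing notes also name DESeq2 1.22.2) and deposited, per transcript, expected counts (estimated reads, unscaled and not whole) and TPM, with transcript lengths in bases. The annotation release and the strand setting are not given in the sources used here. Transcripts were matched to GENCODE M21 on GRCm38 (112762 of 113116), summed to genes and rounded.

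Gene sums were tested with edgeR 4.0.16 in R 4.3.3 (filterByExpr, TMM, quasi-likelihood test without a block, Benjamini-Hochberg adjustment over 14106 genes, called at adjusted p under 0.05). The common dispersion was 0.0542. Ephrin levels are deposited TPM summed over a gene's transcripts. The offset for transcript length was a spline with 5 degrees of freedom. The test was checked on simulated counts. Depth was 21185956 to 31036317 reads per library, the detection floor was 3 reads, and floors cover counting error only. No library pair of 10 held identical counts. Python 3.11.15 with pandas 2.3.3, numpy 2.4.6 and matplotlib 3.10.9 prepared tables and plots.

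The members and lists were chosen with earlier results of these data known. Named were all ligands and receptors; in other lists the genes called and the 2 most abundant others; the 5 nearest profiles of the 2 most abundant ligands; and genes within 100 kb of the chromosome 3 ligands. Of the last, the genes called, the direct neighbours and those below both controls are named in the text. Alternatives were DESeq2 1.42.0, other scalings, no filter, offsets for transcript or effective length, a replicate block, a log2 fold change past 1.5, other units of level and leaving out each replicate. 1 gene within the rule is not reported here. Single-cell samples were not analysed here.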

Additional observations from a re-analysis of the deposited data

How the results depend on the processing

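Over 14 alternatives the log2 fold change of Efna1 ran from 3.51 to 4.95, apart from 8.49 without control replicate 3, where the only control left has 0 reads and the value depends on the prior count. It kept its sign for Efna2 (0.07 to 0.43), Efna3 (0.28 to 2.12), Efna4 (1.15 to 1.66), Efna5 (−1.34 to −0.78) and Efnb1 (0.74 to 1.04). Efnb2 kept it in 13 (−0.83 to 0.17) and Efnb3 in 10 (−0.61 to 0.13). As the ligands were listed with this contrast in view, a kept sign is a description. The ligands' median stayed between 0.35 and 0.70. Per kilobase of effective length on TMM-scaled reads, the ligands summed to 72.9 in control and 52.8 in irradiated cells.

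Calls over all genes moved more. Of 1786 genes higher and 1827 lower, the length offset gave 600 and 514, and a log2 fold change past 1.5 gave 230 and 268. Without control replicate 2 there were 95 and 175, with the lone control assumed to vary like the irradiated libraries. Leaving out each replicate gave 95 to 2232 higher and 175 to 1977 lower. For receptors lower, that range was 0 to 2 (0 without control replicate 2, 2 without control replicate 3), and for pathway genes 0 to 4 higher and 1 to 9 lower, against 3 and 9. The receptors lower were 0 with the length offset and 0 past 1.5. Pathway genes numbered 1 higher and 2 lower with the length offset, 0 and 0 past 1.5, and 5 higher and 10 lower with no filter on low counts, which gave 2520 higher and 1979 lower over all genes. DESeq2 called 2413 genes higher and 2292 lower.

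The labels do not say whether the numbers 2 and 3, which both groups carry, pair the samples. Across genes, the difference between replicates 2 and 3 in control correlated at −0.196 with that in irradiated cells. This value rests on the same few libraries and cannot decide whether samples that share a number were paired. With the replicate block, 602 genes were higher, 494 lower, 0 receptors lower and 2 pathway genes lower. The replicate block with the length offset gave 11 higher, 19 lower, 0 receptors lower and 0 pathway genes in either direction. A block with crossed numbers, added after seeing the data, gave 3026 higher, 2670 lower, 2 receptors lower and 4 and 12 pathway genes. Of the 20 genes around the chromosome 3 ligands (5 higher, 0 lower), the replicate block gave 2 higher and 0 lower, the block with the length offset 0 and 0, the crossed block gave 7 and 0, and leaving out control replicate 3 gave 5 and 1. Over 13 alternatives Kalrn passed in 12, Aph1a and Cbl in 10, Epha5 and Rock2 in 9, Nck1 and Sdcbp in 8, Tiam1 in 7, Itsn1, Abl2, Rock1 and Sipa1l1 in 6 and Ptpn13 in 3; the adjusted p of Epha5 ran from 0.000159 to 0.414. The cause of these changes was not tested. Efna1, with 0 and 4 reads in the controls against a floor of 3, has no precise level there at this depth.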
